A study of Homo sapiens with 6 samples.

Results

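The CEP and IFT genes are the 51 genes of the deposited table whose symbol is CEP or IFT followed by a number and that had at least 10 counts in at least 3 of the 6 libraries, out of 16655 genes in all. There were 37 CEP and 14 IFT genes among them. The symbols took 52 genes, and CEP295NL was left out because it had at most 1 count in any library. All 51 members had at least 10 counts in every library and were tested, so that no member passed through 1 group alone.

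The members were measured by RNA-seq in HEK-293T, an established human cell line of embryonic kidney origin with SV40 large T antigen. Cells were transfected by lipofection (Lipo3000) either with the GFP vector (GFP, n = 3) or with the vector for GFP-tagged RfA1, a squid reflectin (RfA1, n = 3), were cultured for 24 h and were harvested with trypsin, and no other genotype, drug or time was used. The RNA-seq part of the study, done beside imaging and protein-binding experiments, asked how the transcripts of these cells respond to RfA1. The transfection is transient and a library holds all cells of a dish, so that cells with and without plasmid were mixed, a single cell line was used, and fewer cells that express a gene and less RNA per cell cannot be told apart.

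Centrosomal (CEP) proteins build the pair of centrioles and the pericentriolar material around them, the main site at which animal cells nucleate microtubules. In cells that have left the cycle the mother centriole docks at the membrane by its appendages and becomes the base of a primary cilium, which intraflagellar transport (IFT) builds: the IFT-B complex carries cargo to the tip with kinesin-2, and the IFT-A complex takes part in the return by dynein-2. HEK-293T cells cycle in culture and carry centrosomes, and only some of them form a cilium.

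Letters known from genes of the cell cycle and of cilia were searched in the promoters of the members. The 30-base stretches are shown for a selection of the members described below and for the only full X-box. One is TTTGAA, the core of the cell cycle homology region (CHR), an element of many genes of the late cell cycle. Another is GTTGCC, the half-site of the X-box, which RFX factors bind in ciliary genes. The full X-box was searched as GTTNCC and GGNAAC with any 2 bases between them. All were searched on both strands, from 250 bases before to 50 bases after the start, in the RefSeq promoters of 33 CEP and 13 IFT genes. The sequences below are from RefSeq on GRCh38.p14, lie before the start of the RefSeq transcript they were taken for, are written 5′ to 3′ on the strand of the gene, and have the matched letters in capitals, which read as the reverse complement where the match is on the other strand. The stretches of CEP295, CEP135, IFT27 and IFT122 overlap an exon of some transcript in GENCODE 29. Not every match before a start is shown: CEP57 and CEP89 also hold half-sites, and IFT80 holds TTTGAA.
CEP55 (CHR, chr10:93496484-93496513, plus strand): tactctccgcccTTCAAAggcggcagccaa
CEP57 (CHR, chr11:95789935-95789964, plus strand): cgcgaaatccgcTTTGAAcctgccccgccc
CEP89 (CHR, chr19:32972084-32972113, minus strand): ccctggcggggaTTTGAAcggtacccactg
CEP295 (CHR, chr11:93661622-93661651, plus strand): attggcgggcggTTTGAAtgacggaagtga
CEP85L (half-site, chr6:118710152-118710181, minus strand): acggaagctcagGTTGCCtcttatgaatat
CEP135 (full X-box, chr4:55948880-55948909, plus strand): ccgctcccGTTACCGGGGCAACcgcggcgc
IFT27 (half-site, chr22:36776143-36776172, minus strand): ggagcttttggcGGCAACcaatcgagggtc
IFT46 (half-site, chr11:118566110-118566139, minus strand): tttatcagccgcGTTGCCacccatagccgc
IFT122 (half-site, chr3:129440194-129440223, plus strand): agcttaccgcgcatgtacGTTGCCaggggt

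TTTGAA was found in 14 of the 33 CEP genes (42.4%), in 1 of the 13 IFT genes (IFT80, 7.69%) and in 13.4% of the 10633 tested genes with a promoter entry. GTTGCC was found in 6 of the 13 IFT genes (46.2%) and in 11 of the 33 CEP genes (33.3%), against 17.0% of the tested genes. The 6 IFT genes were IFT122, IFT27, IFT46, IFT74, IFT81 and IFT88. The full X-box was in CEP135 alone, against 0.79% of the tested genes, and holds a half-site of its own. Over all 27305 genes with a promoter entry, human genes that these cells do not use included, TTTGAA was in 18.2%, GTTGCC in 14.6% and the full X-box in 0.593%. Counted per promoter and not per gene, over 35116 promoters, the shares were 15.2%, 12.2% and 0.49%. The CCAAT box (CCAAT) and the GC box (GGGCGG) were in 18 and 26 of the 33 CEP genes and in 7 and 11 of the 13 IFT genes, against 43.4% and 78.7% of the tested genes. The promoters had a median GC content of 61.8% for CEP, 63.0% for IFT and 65.0% for the tested genes. A match is a string of letters and no evidence of binding, and these letters were chosen after several patterns had been tried on these promoters. CEP170B, IFT22, CEP250 and CEP78 were among the members not matched.

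The libraries held 10272306 to 11566284 counts, and 13002 genes passed the filter on low counts. Expression is given as CPM, counts per 1000000 of the TMM-normalized library size, and levels between genes as the authors' TPM, which is scaled by gene length. RfA1 replicate 2 stood apart from its group, and GFP replicate 1 also lay apart from GFP replicates 2 and 3. The fit without GFP replicate 1 is summarised at the end. On the first principal component, which held 44.6% of the variance, RfA1 replicate 2 had a score of 10.1. That score lay between those of GFP replicate 1 (-2.18) and GFP replicates 3 (12.3) and 2 (18.2). RfA1 replicates 1 and 3 were at -16.5 and -22.0. The loading of genes on this component went with the GC content of their transcripts (Spearman's correlation 0.750 across genes), and for members with values in every library the log2 fold change is therefore also given without RfA1 replicate 2 and with a correction for GC content. All 9 HEK-293T markers were above a TPM of 1 on average, with a summed level of 948.6 to 1135 TPM in GFP and 989.6 to 1195 in RfA1. Of 7 markers of blood, liver, endothelium and muscle, only DES reached a mean TPM of 1, CD3E was not analysed here, and their sum was 2.16 to 3.10 TPM in GFP and 1.93 to 2.77 in RfA1. Of 9 markers of multiciliated cells, 3 (MCIDAS, CCNO and TPPP3) were above a TPM of 1, DEUP1 was not analysed here, and the sum was 27.64 to 32.05 TPM in GFP and 25.42 to 31.09 in RfA1.

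The members were expressed at moderate levels in both groups. The median of the mean TPM was 11.8 over the CEP genes and 15.3 over the IFT genes, beside 14.8 over all tested genes. The highest CEP levels were those of CEP95 (47.1 TPM), CEP85 (43.8 TPM), CEP131 and CEP55 (32.1 TPM each), and the lowest were CEP126 (1.22 TPM) and CEP112 (3.14 TPM). CEP126 organizes microtubules at the centrosome, and CEP112 is little studied. Among the IFT genes, IFT27 (52.7 TPM), IFT57 (45.5 TPM), IFT46 (41.4 TPM) and IFT43 (39.8 TPM) were highest, and IFT22 (8.04 TPM) and IFT88 (5.64 TPM) were lowest. Subunits of the same complex thus differed in level: within IFT-B1, IFT27 was at 57.6 ± 3.0 TPM and IFT88 at 5.89 ± 0.563 TPM in GFP (SD, n = 3). Some neighbours in this order overlapped within their SD in GFP, such as CEP131 (34.1 ± 3.41 TPM) and CEP55 (29.3 ± 3.17 TPM), and others did not, such as IFT27 and IFT57 (44.5 ± 1.76 TPM).

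**Figure D1:**
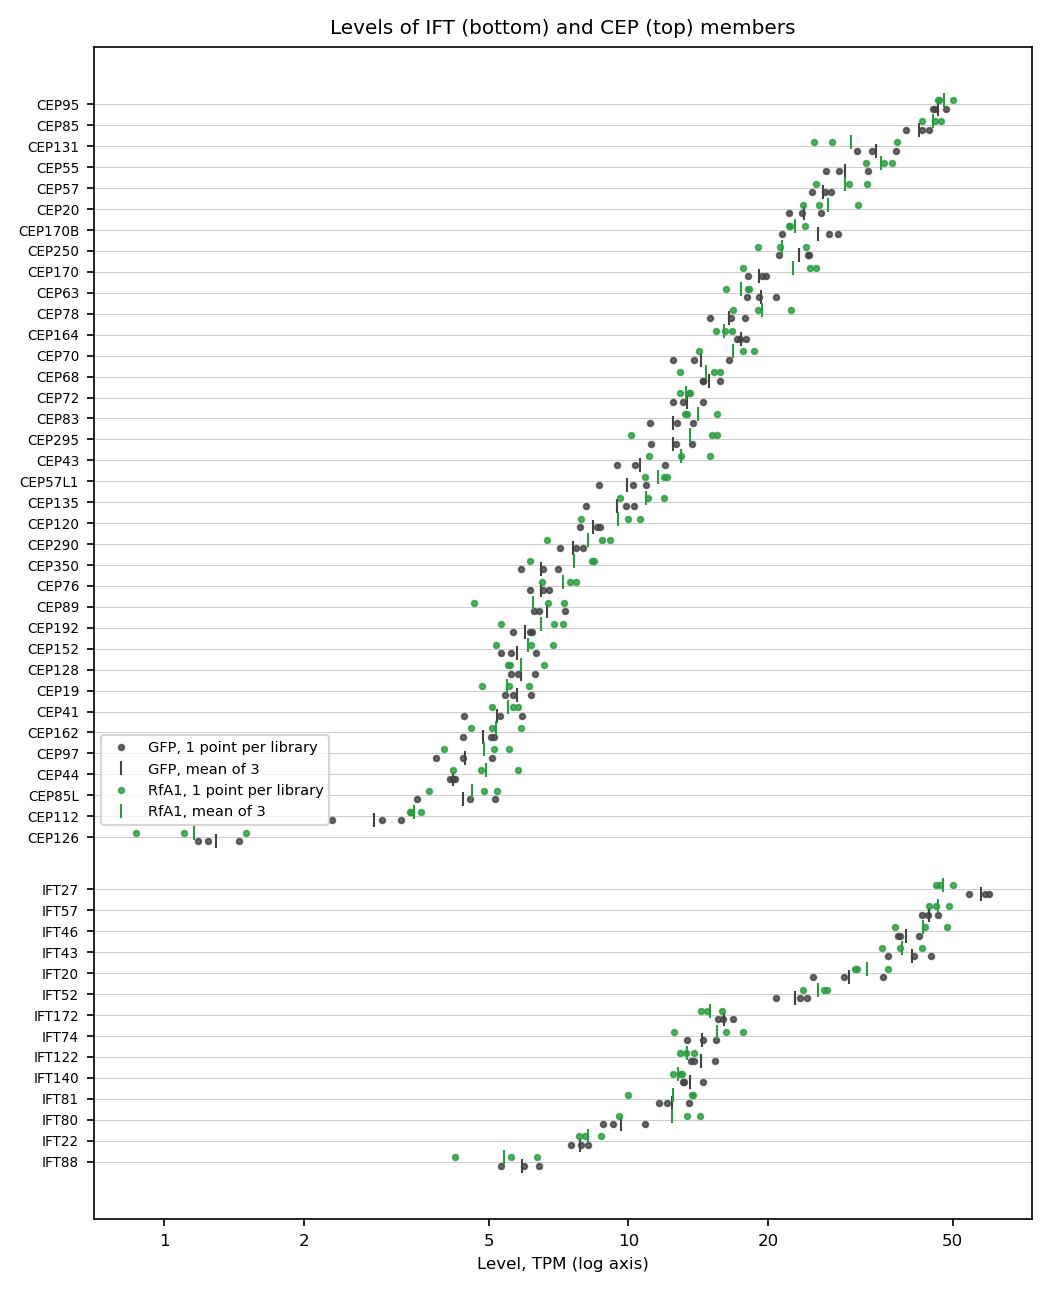
Levels of 50 members in TPM (log axis) in each library, with GFP in grey, RfA1 in green and a vertical tick at the mean of 3. The levels run from CEP126 at 1.22 TPM to IFT27 at 52.7 TPM, and for most members the points of the groups overlap.

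No CEP gene and no IFT gene passed an adjusted p of 0.05 between RfA1 and GFP in the quasi-likelihood test of edgeR, with p-values adjusted by Benjamini-Hochberg over the 13002 genes, of which 10 (0.0769%) did. At an unadjusted p under 0.05 there were 2 of 37 CEP genes (5.41%, CEP85L and CEP43, both higher in RfA1) and 3 of 14 IFT genes (21.4%, IFT80 higher, IFT27 and IFT172 lower), beside 13.9% of all tested genes. DESeq2 also gave no member at an adjusted p of 0.05, and 0 CEP and 2 IFT genes at an unadjusted p under 0.05, beside 9.98% of all tested genes. The differences were small: log2 fold changes ran from -0.27 (CEP126) to 0.28 (CEP85L) over the CEP genes and from -0.34 (IFT27) to 0.30 (IFT80) over the IFT genes. Of the CEP genes 25 (67.6%) had a positive log2 fold change, beside 49.5% of the tested genes, with a median of 0.045 beside -0.0024, and of the IFT genes 6 of 14 did, with a median of -0.059. Both signs depend on the scaling, since the CEP median was -0.032 after the GC correction and the IFT median was 0.024 on log2(TPM + 1), a scale on which the median of all genes was 0.045.

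The groups did not overlap for 9 members. CEP44, CEP55, CEP57L1 and CEP85L were higher in every RfA1 library than in any GFP library, and 9.86% of the tested genes were. CEP63, CEP89, CEP164, IFT27 and IFT172 were lower in every RfA1 library than in any GFP library, and 8.01% of the tested genes were. Over the families these were 4 of 37 CEP genes above and 3 below, and 0 of 14 IFT genes above and 2 below.

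**Figure D2:**
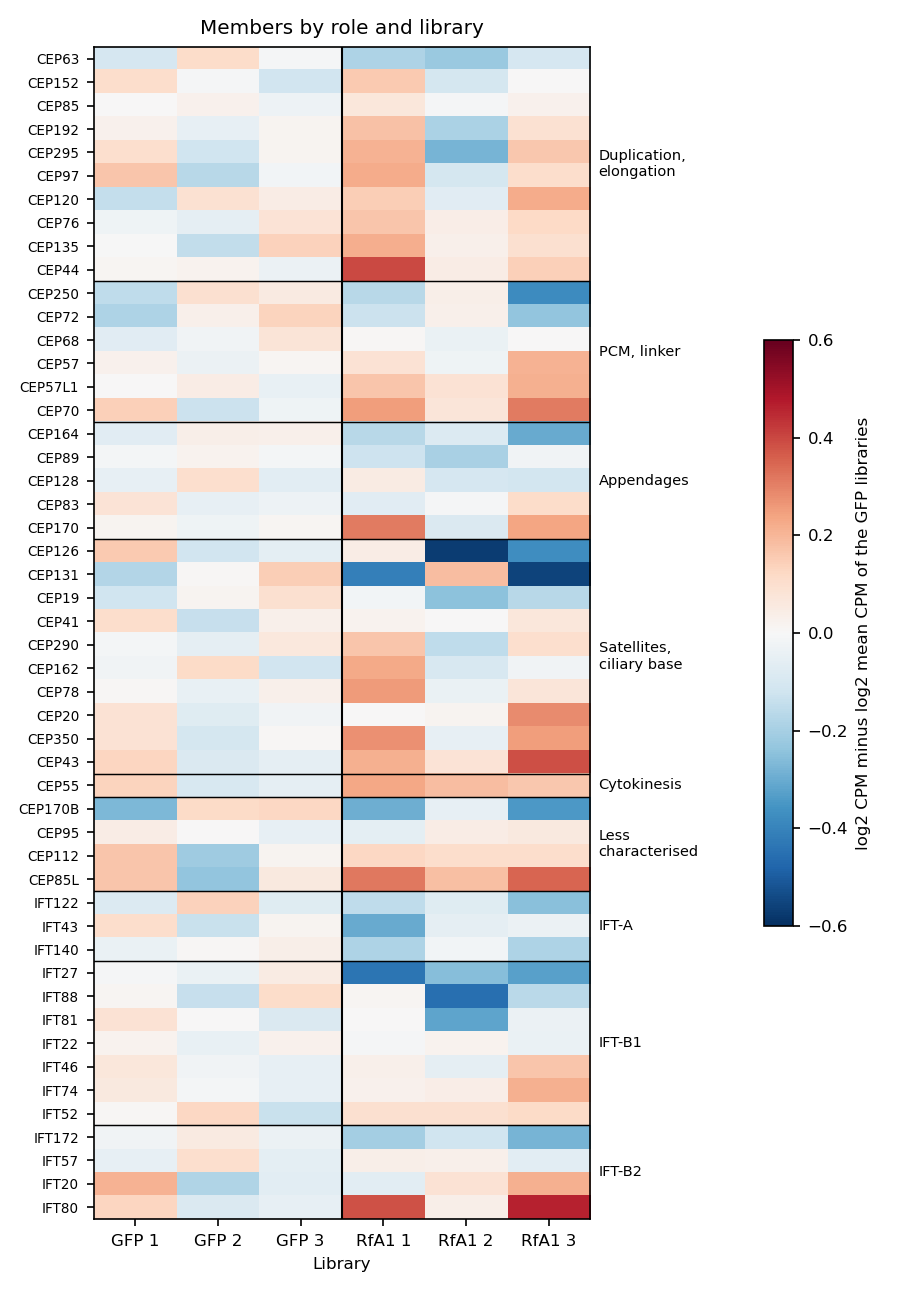
Each row is one of 50 members, grouped by role, and each column a library, and the colour is the log2 CPM minus the log2 of the mean CPM of the GFP libraries (red higher, blue lower). IFT27 is blue in all 3 RfA1 libraries, whereas CEP131 and CEP170 have opposite colours in RfA1 replicate 2 and in RfA1 replicates 1 and 3.

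Among the 10 genes of centriole duplication and elongation, 9 had a positive log2 fold change, with a median of 0.064, and none had an unadjusted p under 0.05. After the GC correction 4 of the 10 were positive. CEP63, which brings CEP152 to the mother centriole so that PLK4 can start a new centriole, was the exception. CEP63 was at 25.0, 28.9 and 26.7 CPM in GFP and at 23.6, 23.0 and 25.0 CPM in RfA1 (replicates 1 to 3, as in all lists of values here). The highest RfA1 value of CEP63 lay just under the lowest GFP value, and its log2 fold change was -0.17 ± 0.10 (SE, adjusted p = 0.442). Its exons share 306 bases with ANAPC13 on the other strand. CEP85, which binds STIL and promotes the activity of PLK4 and was the most abundant of the group, was at 99.4, 101 and 97.2 CPM in GFP and at 104, 98.9 and 101 CPM in RfA1. These values overlapped, with a log2 fold change of 0.03 ± 0.07 (SE, adjusted p = 0.858). CEP152 and CEP192, the scaffolds of PLK4, had log2 fold changes of 0.02 and 0.04. The log2 fold change without RfA1 replicate 2 was -0.15 for CEP63 and 0.05 for CEP85, and with the GC correction it was -0.25 and 0.05. CEP135 of the cartwheel, CEP120 of elongation, CEP76, CEP97, which caps the centriole with CP110, and CEP295 and CEP44, which turn new centrioles into centrosomes, lay between 0.05 (CEP295) and 0.20 (CEP44).

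The 6 genes of the pericentriolar material and of the linker between centrosomes had log2 fold changes from -0.16 (CEP250, the linker protein C-Nap1) to 0.21 (CEP70), 3 of them positive. CEP70, which binds γ-tubulin and organizes microtubules, was at 23.3, 19.3 and 20.7 CPM in GFP and at 25.1, 22.2 and 26.2 CPM in RfA1. Only RfA1 replicate 2 lay within the GFP range, and the log2 fold change of CEP70 was 0.21 ± 0.11 (SE, adjusted p = 0.402). CEP57, which holds the pericentriolar material to the centriole, was at 56.8, 54.5 and 56.2 CPM in GFP and at 59.3, 54.9 and 64.5 CPM in RfA1. RfA1 replicate 2 was again among the GFP values of CEP57, whose log2 fold change was 0.09 ± 0.09 (SE, adjusted p = 0.621). Without RfA1 replicate 2 the log2 fold change was 0.28 for CEP70 and 0.15 for CEP57. With the GC correction it was 0.11 for CEP70 and -0.01 for CEP57, so that the sign of CEP57 differed. The paralog CEP57L1, the linker protein CEP68 and CEP72 had log2 fold changes of 0.16, -0.01 and -0.11.

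Of the 5 appendage genes 2 had a positive log2 fold change, with a median of -0.05. CEP164, the distal appendage protein that recruits the kinase TTBK2 to start a cilium, was at 67.8, 72.8 and 72.6 CPM in GFP and at 63.3, 67.1 and 57.6 CPM in RfA1. The GFP and RfA1 values of CEP164 did not overlap, and the log2 fold change was -0.18 ± 0.09 (SE, adjusted p = 0.374). CEP170, a subdistal appendage protein that holds microtubules, was at 95.3, 92.6 and 95.2 CPM in GFP and at 117, 88.9 and 111 CPM in RfA1. RfA1 replicates 1 and 3 were above, and RfA1 replicate 2 below, all GFP values of CEP170, so that the SD was 14.9 CPM in RfA1 and 1.53 CPM in GFP and the log2 fold change was 0.17 ± 0.10 (SE, adjusted p = 0.459). When RfA1 replicate 2 was left out, the log2 fold change was -0.23 for CEP164 and 0.28 for CEP170, and with the GC correction it was -0.09 and 0.06. CEP170 has a near-identical pseudogene, CEP170P1, and its counts are uncertain to the extent that reads were shared. CEP83 and CEP89 of the distal and CEP128 of the subdistal appendages had log2 fold changes of 0.01, -0.11 and -0.05.

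The 11 genes of the centriolar satellites and of the ciliary base or tip held both the widest spread between RfA1 libraries and a member with an unadjusted p under 0.05. CEP43, also called FOP, a centriole and satellite protein needed for ciliogenesis (Gene ID 11116, chromosome 6 from 166999182 to 167094789 on GRCh38), was at 46.3, 39.8 and 40.8 CPM in GFP and at 49.1, 44.8 and 55.3 CPM in RfA1. RfA1 replicate 2 lay below GFP replicate 1, the other RfA1 values of CEP43 were above all GFP values, and the log2 fold change was 0.23 ± 0.10 (SE, adjusted p = 0.349). CEP350, which forms a complex with CEP43, and CEP20, a relative of CEP43 in the satellites, had log2 fold changes of 0.17 and 0.11. CEP131, a core satellite protein, was at 74.2, 84.3 and 92.8 CPM in GFP and at 63.0, 95.2 and 57.0 CPM in RfA1. RfA1 replicate 2 was the highest and RfA1 replicates 1 and 3 were the lowest of the 6 values of CEP131, and the log2 fold change was -0.22 ± 0.16 (SE, adjusted p = 0.528). With the GC correction the log2 fold change was 0.16 for CEP43 and -0.05 for CEP131, and without RfA1 replicate 2 it was 0.30 and -0.48. The others named here ran from -0.27 (CEP126) to 0.10 (CEP78) on the log2 scale, with CEP290 of the transition zone at 0.04, and CEP162, CEP41 and CEP19 at 0.05, 0.03 and -0.14.

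CEP55, which brings the ESCRT machinery to the midbody to cut daughter cells apart (Gene ID 55165, chromosome 10 from 93496632 to 93529092), was at 55.4, 47.3 and 48.6 CPM in GFP and at 59.4, 57.4 and 56.4 CPM in RfA1. The RfA1 values of CEP55 lay close together and just above GFP replicate 1, the highest GFP value. Its log2 fold change was 0.19 ± 0.09 (SE, adjusted p = 0.362) and 0.20 without RfA1 replicate 2, but 0.11 with the GC correction and 0.05 with the correction and without that library. CEP55 is a gene of mitosis, and of 9 markers of cycling cells 7 had a positive log2 fold change, with a median of 0.064, 1 (CDC20, lower in RfA1) at an unadjusted p under 0.05 and none past the adjusted threshold. With the GC correction MKI67, CDC20, PLK1 and CENPF were negative, at -0.01, -0.12, -0.03 and -0.03. The other markers were positive in that fit, up to 0.07 (BUB1). The summed level of these markers was 1026 to 1066 TPM in GFP and 1034 to 1083 TPM in RfA1, and their part in the values of CEP55 was not tested.

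Of the 4 less characterised CEP genes, CEP85L, a pericentriolar protein mutated in posterior lissencephaly, had the largest positive CEP difference (Gene ID 387119, chromosome 6 from 118460772 to 118710075). CEP85L was at 18.4, 13.9 and 17.1 CPM in GFP and at 20.4, 18.6 and 20.9 CPM in RfA1. The lowest RfA1 value of CEP85L was just above the highest GFP value, and the log2 fold change was 0.28 ± 0.12 (SE, adjusted p = 0.349). In TPM the groups were closer, at 4.40 ± 0.830 in GFP and 4.61 ± 0.786 in RfA1 (SD, n = 3). CEP170B, a paralog of CEP170, was at 99.7, 130 and 131 CPM in GFP and at 98.1, 116 and 94.4 CPM in RfA1. GFP replicate 1 of CEP170B lay among the RfA1 values, and the log2 fold change was -0.22 ± 0.12 (SE, adjusted p = 0.407). CEP95 was at 88.7, 86.3 and 83.3 CPM in GFP and at 82.8, 88.9 and 89.6 CPM in RfA1, which overlapped, with a log2 fold change of 0.02 ± 0.08 (SE, adjusted p = 0.933). Its exons share 506 bases with DDX5 and 167 with SMURF2 on the other strand. CEP112 had a log2 fold change of 0.11. Without RfA1 replicate 2 the log2 fold change was 0.33 for CEP85L, -0.32 for CEP170B and 0.002 for CEP95. With the GC correction it was 0.18 for CEP85L, -0.02 for CEP170B and -0.04 for CEP95, and for CEP170B it was 0.03 with the correction and without that library.

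The 3 IFT-A genes all had a negative log2 fold change, from -0.16 (IFT122) to -0.13 (IFT140), with a median of -0.13, and in none was the unadjusted p under 0.05. IFT122, a core subunit of IFT-A, was at 35.6, 41.5 and 35.9 CPM in GFP and at 33.9, 35.8 and 31.7 CPM in RfA1. Its RfA1 replicate 2 lay within the GFP range, and the log2 fold change of IFT122 was -0.16 ± 0.10 (SE, adjusted p = 0.473). IFT43, a small peripheral subunit and the most abundant IFT-A gene in TPM, was at 18.2, 15.4 and 17.1 CPM in GFP and at 13.7, 16.3 and 16.5 CPM in RfA1. These values of IFT43 overlapped, with a log2 fold change of -0.13 ± 0.12 (SE, adjusted p = 0.621). When RfA1 replicate 2 was left out, the log2 fold change was -0.20 for IFT122 and -0.17 for IFT43, and with the GC correction it was -0.12 and -0.16. After the GC correction the log2 fold change of IFT140, the IFT-A subunit with the highest GC content, was 0.01, and the median of the group was -0.12.

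The 7 IFT-B1 genes had a median log2 fold change of -0.01, and 3 were positive. IFT27, a Rab-like GTPase of the complex that takes part in export by the BBSome (Gene ID 11020, chromosome 22 from 36758202 to 36776256, minus strand), had the largest difference of the 51 members in the fit with all libraries and no GC correction. IFT27 was at 34.1, 33.4 and 35.5 CPM in GFP and at 25.3, 28.7 and 27.4 CPM in RfA1. The GFP values lay close together, and the highest RfA1 value of IFT27 was below the lowest GFP value by more than the range of either group. The log2 fold change was -0.34 ± 0.09 (SE), or 0.791 of the GFP level, with an adjusted p of 0.234. In TPM IFT27 was at 57.6 ± 3.0 in GFP and 47.7 ± 2.15 in RfA1 (SD, n = 3). Without RfA1 replicate 2 the log2 fold change of IFT27 was -0.38, behind CEP131 and IFT80 in size, and with the GC correction it was -0.22, behind CEP126, IFT88 and CEP63. HSPB11, the partner of IFT27 also called IFT25, had a log2 fold change of 0.11. IFT88, IFT81 and IFT22 were negative, at -0.19, -0.11 and -0.01, and IFT52, IFT74 and IFT46 positive, at 0.10, 0.09 and 0.05 on the log2 scale. IFT88, IFT52 and IFT46 belong to the core of the complex, IFT81 and IFT74 bind tubulin together, and IFT22 is a small GTPase.

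The 4 IFT-B2 genes differed among themselves. IFT80 (Gene ID 57560, chromosome 3 from 160256986 to 160399880, minus strand) was at 29.3, 25.2 and 25.9 CPM in GFP and at 34.9, 27.5 and 36.9 CPM in RfA1. RfA1 replicates 1 and 3 were above all GFP values of IFT80 and RfA1 replicate 2 was among them, with a log2 fold change of 0.30 ± 0.12 (SE, adjusted p = 0.321). Of its 7175 exon bases, 607 lie over exons of SMC4 on the other strand and 1953 are shared with a read-through transcript on its own strand, and the strand of the libraries is not given in the sources used here. IFT172, the largest subunit (Gene ID 26160, chromosome 2 from 27444371 to 27489789, minus strand), was at 51.2, 53.8 and 50.6 CPM in GFP and at 45.1, 47.7 and 42.8 CPM in RfA1. The groups did not overlap for IFT172, and the log2 fold change was -0.20 ± 0.09 (SE, adjusted p = 0.343). IFT57, which bears on the link to kinesin-2 and was the most abundant of the group, was at 88.3, 97.8 and 87.8 CPM in GFP and at 93.6, 93.2 and 87.5 CPM in RfA1. IFT57 did not differ beyond this spread, with a log2 fold change of 0.002 ± 0.08 (SE, adjusted p = 0.991). When RfA1 replicate 2 was left out, the log2 fold change was 0.42 for IFT80, -0.24 for IFT172 and -0.01 for IFT57, and with the GC correction it was 0.18, -0.18 and -0.09. IFT20, which also works at the Golgi, had a log2 fold change of 0.09.

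**Figure D3:**
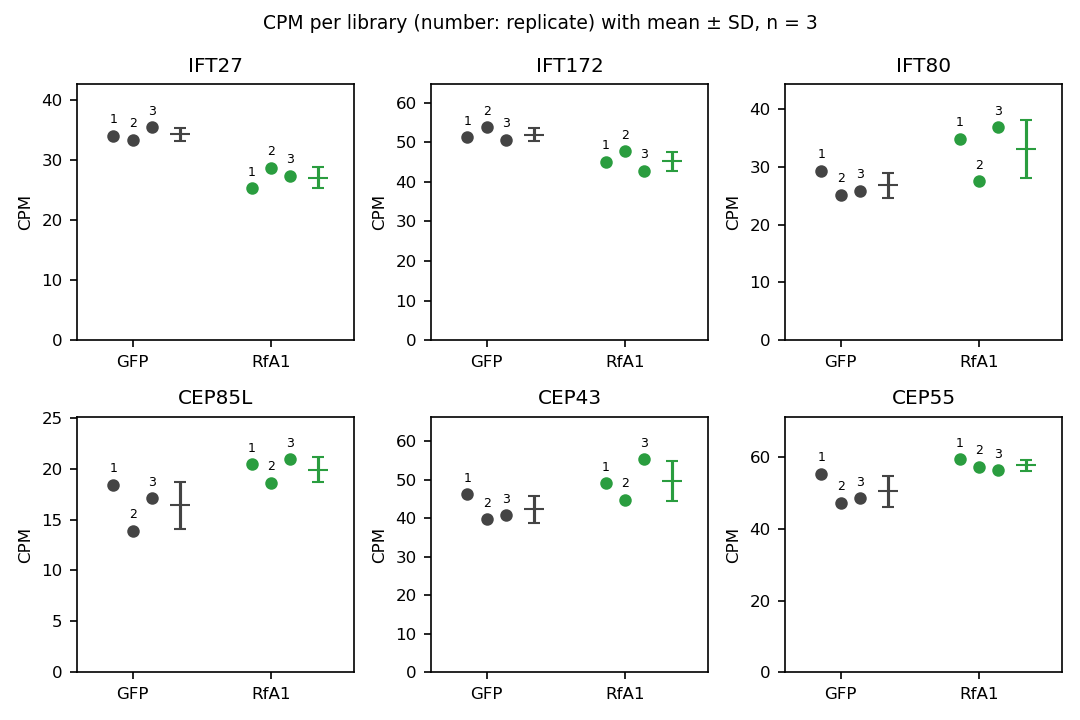
CPM of the 6 members with the smallest unadjusted p among the IFT and CEP genes (3 of each), 1 point per library numbered by replicate, with the mean ± SD (n = 3) beside it and axes from 0. The groups are apart for IFT27, IFT172, CEP85L and CEP55, and RfA1 replicate 2 lies in the GFP range for IFT80 and CEP43.

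Without RfA1 replicate 2, 8 members passed an adjusted p of 0.05 (6 of 37 CEP and 2 of 14 IFT genes), in a fit in which 20.1% of 13129 tested genes did. CEP170, CEP350, CEP43 and IFT80 rose in this fit. Their log2 fold changes were 0.28, 0.27, 0.30 and 0.42, with adjusted p = 0.0128, 0.0300, 0.0311 and 0.00836. CEP131, CEP170B, CEP250 and IFT27 fell in this fit. Their log2 fold changes were -0.48, -0.32, -0.27 and -0.38, with adjusted p = 0.00313, 0.0275, 0.0368 and 0.0123. The CEP median was 0.12 with 27 of 37 positive, and the IFT median -0.02. In IFT27 the difference was of similar size with and without this library, whereas that of CEP131 went from -0.22 to -0.48. The transcripts of the 4 genes that rose had a GC content from 36.9% (IFT80) to 42.9% (CEP43), and those of the 4 that fell from 53.7% (CEP250) to 66.2% (CEP170B).

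**Figure D4:**
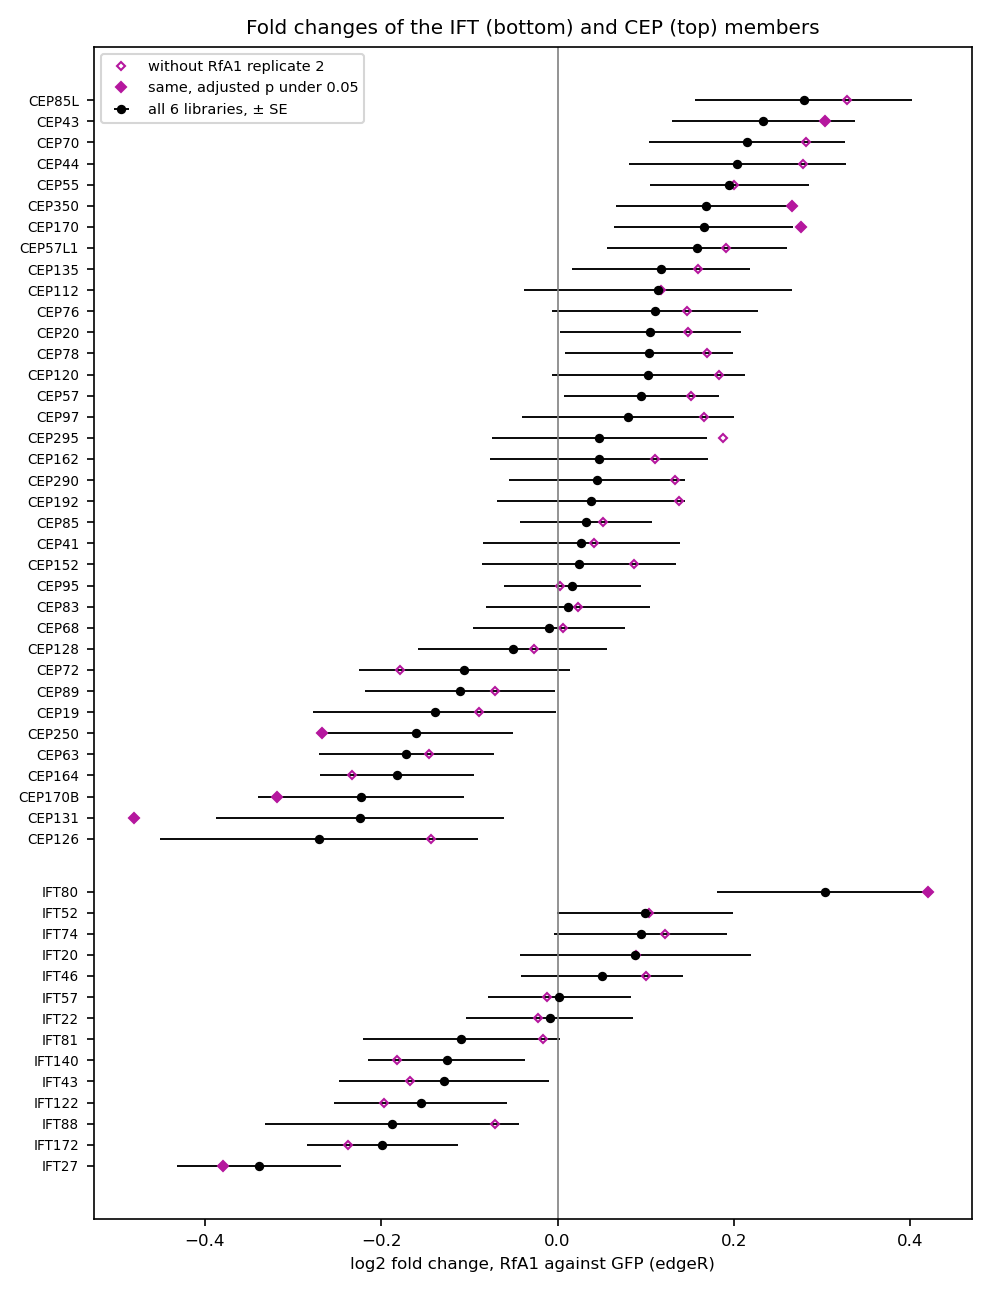
The log2 fold change of 50 members with all 6 libraries (black, ± SE) and without RfA1 replicate 2 (diamonds, filled where the adjusted p is under 0.05). CEP131 moves from -0.22 to -0.48 and IFT80 from 0.30 to 0.42, while IFT27 goes from -0.34 to -0.38.

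Across all genes the log2 fold change fell with the GC content of the transcript, from a median of 0.14 in the 298 genes with 32 to 36% GC to -0.20 in the 677 genes with 64 to 68% GC, with a Spearman's correlation of -0.548 across genes that share the same 6 libraries. This correlation was -0.625 over the 37 CEP and -0.596 over the 14 IFT genes. The CEP transcripts were poor in GC and long, with a median GC content of 41.1% (35.4% to 66.2%) and a median length of 5630 bases, beside 49.1% and 3475 bases for the tested genes. The IFT transcripts had a median of 47.2% and 2682 bases. With a correction for GC content in each library, 12 of 37 CEP genes (32.4%) had a positive log2 fold change, beside 51.9% of the tested genes, and the CEP median was -0.032. In that fit 3 CEP genes (CEP43 higher, CEP63 and CEP126 lower) and 5 IFT genes (IFT80 higher, IFT27, IFT88, IFT81 and IFT172 lower) had an unadjusted p under 0.05, beside 16.1% of all genes, and none of them passed the adjusted threshold. Their log2 fold changes were 0.16 (CEP43), -0.25 (CEP63), -0.38 (CEP126), 0.18 (IFT80), -0.22 (IFT27), -0.29 (IFT88), -0.21 (IFT81) and -0.18 (IFT172). With both the correction and RfA1 replicate 2 left out, a setting chosen after the data were seen, 0 of the 51 members were called, beside 6.66% of all genes. In this setting 4 CEP and 4 IFT genes had an unadjusted p under 0.05, beside 21.6% of all genes. The log2 fold change of IFT27 was then -0.19 (adjusted p = 0.202), that of CEP131 -0.15 (adjusted p = 0.201) and that of IFT80 0.23 (adjusted p = 0.0908).

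**Figure D5:**
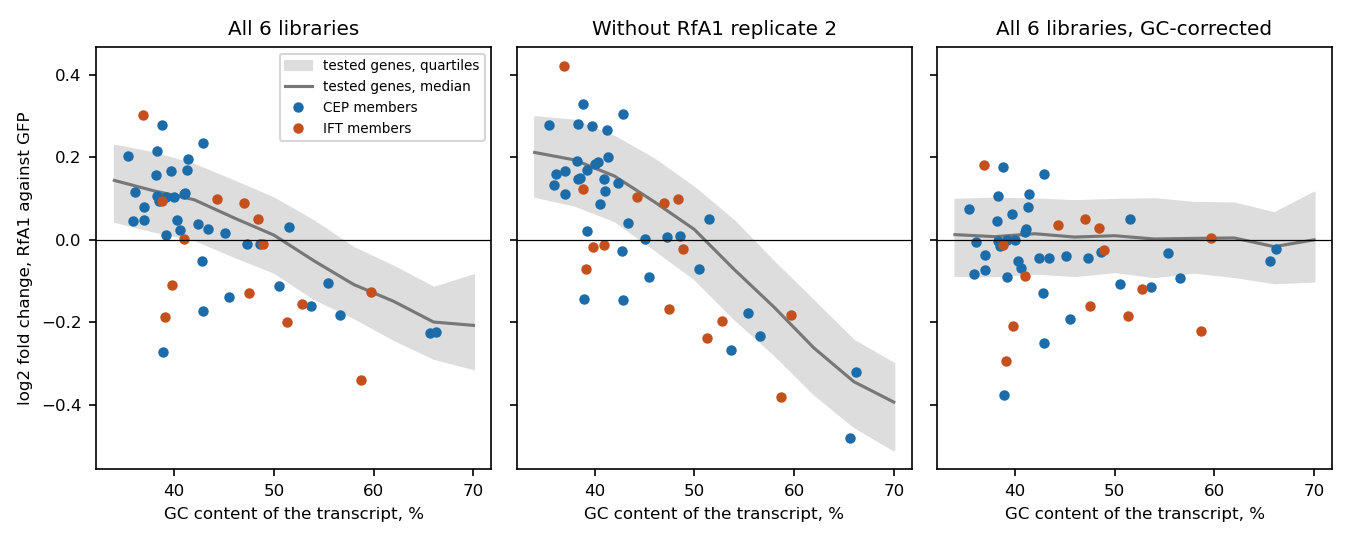
The log2 fold change of CEP (blue) and IFT (orange) members against the GC content of the transcript in percent, over the median (line) and quartiles (band) of all tested genes in bins of 4% GC, with all libraries, without RfA1 replicate 2, and with the GC correction. Members follow the slope of all genes in the first 2 panels, and in the third the line is flat near 0 and 12 of 37 CEP genes are above 0.

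Of 90 other genes of the centrosome and cilium, 84 were tested. None passed the adjusted p of 0.05, and 10 (11.9%, beside 13.9% of all genes) had an unadjusted p under 0.05, 2 higher and 8 lower. The median log2 fold change over the 84 was 0.0003 with all libraries, 0.082 without RfA1 replicate 2 and -0.059 with the GC correction, when 21 of the 84 (25.0%) were positive beside 51.9% of all genes. The gene with the smallest p in each list was BBS1 of the BBSome (-0.37), FBF1 of the distal appendages and transition zone (-0.53), PLK4, the kinase that starts centriole duplication (0.35), CROCC, the rootlet and linker protein (-0.41), DYNC2I2 of the dynein-2 motor (-0.21), SDCCAG8 of the satellites (-0.18) and TTC30A, an IFT-B subunit with a close paralog (-0.36), as log2 fold changes. In the list of PLK4 (unadjusted p = 0.00894 by edgeR), WDR62 had a similar p (0.00977) and the opposite sign (-0.34), without overlap of the groups. For PLK4, WDR62 and CROCC the adjusted p was 0.00252, 0.00087 and 0.000825 without RfA1 replicate 2. With the replicate block it was 0.0231, 0.0143 and 0.0148, and with the GC correction 0.0834, 0.0796 and 0.103. FBF1, which binds CEP83 and CEP164 at the appendages, was at 55.4, 59.7 and 56.5 CPM in GFP and at 32.8, 51.0 and 35.1 CPM in RfA1. All RfA1 values of FBF1 were below the GFP values, and its adjusted p was 0.221 with all libraries. The log2 fold change of FBF1 was -0.75 without RfA1 replicate 2 (adjusted p = 0.000114) and -0.39 with the GC correction (adjusted p = 0.0235), and with the replicate block its adjusted p was 0.00308. BBS1, in the complex that IFT27 helps to leave the cilium, was at 40.3, 37.3 and 42.8 CPM in GFP and at 30.1, 33.9 and 29.3 CPM in RfA1, also without overlap, with an adjusted p of 0.221. For BBS1 the adjusted p was 0.00634 without RfA1 replicate 2, 0.0248 with the replicate block and 0.0612 with the GC correction. Without RfA1 replicate 2, 13 of the 84 were called, 5 higher and 8 lower, beside 20.1% of all genes, and after the GC correction 1 (FBF1) was, beside 1.56% of all genes. As for the members, leaving out RfA1 replicate 2 favours small p-values in these genes.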

How the data were processed

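RNA-seq of 3 GFP and 3 RfA1 libraries was used, grouped by the sample labels. The authors deposited 1 table with estimated counts (7.39% to 8.02% not whole per library), TPM and FPKM of each library. The deposited TPM served for levels, and FPKM and 6 columns of the authors' averages were not used. The submitters' processing notes name HISAT and GRCh38.p13, and the counting tool, annotation and strand are not given in the sources used here. Whether replicates are separate cultures is not stated, so that p-values measure the spread between these libraries, which may be technical.

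Estimated counts were rounded, filtered with filterByExpr (minimum count 10, minimum total 15), normalized by TMM and tested with the robust, two-sided quasi-likelihood test of edgeR 4.0.16 (R 4.3.3) with Benjamini-Hochberg adjustment over 13002 genes, which covers counting error. The step was tested on simulated data. The simulated counts had the same dispersion in all genes, no shift with GC content and no deviant library. That test therefore does not cover these features of the data, and its outcome is not reported here. For the GC correction, the deviation of log2 CPM from the mean of each gene was fitted on transcript GC by a spline (5 degrees of freedom) per library, and the fit was an offset. GC, length and gene coordinates came from the longest protein-coding transcript in GENCODE 29 (98.2% of genes, 51 of 51 members). Alternatives were DESeq2 1.42.0, other normalizations and filters, the replicate block, limma 3.58.1 on log2(TPM + 1) and log2(TPM + 0.1), the GC correction and each library left out.

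Members are grouped by a hand-made list of roles. One member counts in all totals and is not reported by name here. Values in every library are given for the member with the smallest p and the one with the highest TPM in each role, and the 6 CEP and 3 IFT genes with the smallest p. Of the other lists the gene with the smallest p is named. FBF1 and BBS1 are given in full, and PLK4, WDR62 and CROCC in part, by choice after their values were seen. Not every gene past the threshold in an alternative is described. LRRC45, for example, is only counted, and CEP350 and CEP250 are named without values in every library. The members and lists were chosen with earlier results of these data known. Of 51 members, 23 share exon bases with another gene in GENCODE 29, 15 of them with a gene of the table on the other strand. RefSeq promoters were matched by Gene ID, and in 50 of 57 member promoters the bases after the start were found on the same strand of a GENCODE transcript.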

Additional observations from a re-analysis of the deposited data

How the results depend on the processing

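No member was called in the fits with other normalizations, filters, DESeq2, TPM or the GC correction. Calls over all genes were 10, against 33 (DESeq2), 6 (upper quartile), 20 (no filter), 4 and 4 (limma on log2(TPM + 1) and log2(TPM + 0.1)), 203 (GC correction), 875 (GC correction without RfA1 replicate 2) and 0 to 2636 with a library left out. CEP genes at an unadjusted p under 0.05 were 2, against 0 (DESeq2), 1 and 1 (TPM), 4 (GC correction without RfA1 replicate 2) and 0 to 12 with a library left out. IFT genes were 3, against 1 and 1 (TPM), 5 (GC correction) and 1 to 3 with a library left out. Of all genes 13.9% had such a p with all libraries, 9.98% with DESeq2, 12.6% and 12.5% on TPM and 16.1% with the GC correction. The share was 21.6% with the GC correction without RfA1 replicate 2, and 6.55% to 34.9% with a library left out. The 12 CEP genes came without RfA1 replicate 2, where the share of all genes was 34.9%. Without GFP replicate 1 there were 6 CEP and 2 IFT genes, beside 17.2% of all genes, and no member was called. The CEP median of 0.045 was 0.096 on log2(TPM + 0.1), -0.032 with the GC correction, -0.031 with it and without RfA1 replicate 2, and 0.012 to 0.12 with a library left out. The IFT median of -0.059 was -0.042 with total library size, 0.024 and 0.026 on the TPM scales, -0.099 with the GC correction without RfA1 replicate 2, and -0.066 to -0.019 with a library left out. With a library left out, 0 to 6 CEP and 0 to 2 IFT genes were called. Those above 0 came without RfA1 replicate 2, beside 20.1% of all genes in that fit.

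The deviations of same-numbered libraries correlated at 0.17, 0.32 and -0.14. These values do not settle whether the replicate numbers are pairs, which the labels do not say, and the block was used as an alternative only. With the replicate block 625 genes were called, 458 with the GC correction as well. The biological coefficient of variation was 6.59% with the block alone, beside 8.83% in the fit with all libraries and no block. In the block fit 7 of 37 CEP genes had an unadjusted p under 0.05, beside 23.6% of all genes. There 1 IFT gene was called (IFT27, adjusted p = 0.0367), beside 4.81% of all genes. With the block and the GC correction the CEP median was -0.03 and no member was called. In that fit 5 IFT genes had an unadjusted p under 0.05, beside 18.2% of all genes. Of 306 alternative values of the 18 named members, 7 passed the threshold that none passed with all libraries, and 19 had another sign, in IFT57, CEP57, CEP95 and CEP170B.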
